A study of Homo sapiens with 6 samples.

Results

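The epithelial lineage factors described here are KLF4, KLF5, TFAP2A, TFAP2C, GATA3, FOXA1, SOX9 and SOX2, transcription factors of epithelial and progenitor cells. They were taken from a list of 9 members that also held TP63, which had no probe set under the rule and is not analysed here. Every probe set whose only gene symbol was a member was kept, which gave 20 of the 54613 probe sets tested, for 8 of 19775 genes. The study profiled 2 groups: MCF10A cells carrying C/EBPbeta-2 (3 arrays), and the same line without it, called control (3 arrays). MCF10A is an immortal but non-tumorigenic cell line from human breast epithelium, and all samples grew in one medium with horse serum, insulin, hydrocortisone, epidermal growth factor, cholera toxin, penicillin and streptomycin. C/EBPbeta-2 is made from CEBPB, a gene of the leucine-zipper transcription factors, and the sources do not state its means of delivery or whether the cells with it are one clone. Replicates are labelled biological with nothing on what set them apart, so p-values cover only the spread between these 6 samples.

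The Krüppel-like factors bind GC-rich DNA through zinc fingers, and in squamous epithelia KLF4 drives terminal differentiation while KLF5 marks dividing cells nearer the basement membrane. The AP-2 proteins TFAP2A and TFAP2C act early in skin and mammary ectoderm, and GATA3 and FOXA1 specify the luminal cells that line the ducts and carry the oestrogen receptor. SOX9 and SOX2 are HMG-box factors of progenitor cells, SOX9 in the mammary and hair epithelium of mice and SOX2 in the oesophagus and in pluripotent cells.

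C/EBP proteins bind DNA at palindromes built on the half-site ATTGC, so the start regions of the members were searched for those letters, and for the looser core TTGCNNAA in which N is any base, on both strands. RefSeq windows (GRCh38.p14) of 300 bases, 250 before and 50 after a start, were matched by symbol for 6 of the 8 measured members, 13 windows in all. TFAP2C and SOX9 had none in the table used. ATTGC was found in 3 of the 13 windows, one each of KLF5, TFAP2A and GATA3, and in 24.5% of all 35116 windows. TTGCNNAA was found in 1 of the 13, another start of GATA3, and in 10.5% of all windows. A GATA3 window of each kind exists, and the one with TTGCNNAA is shown with those of KLF5 and TFAP2A so that the matched letters, in capitals, can be read in their surroundings. A match describes these letters and is not a binding site, and the windows of KLF4, FOXA1 and SOX2 held neither run.
KLF5, chr13:73054726-73055025, plus strand: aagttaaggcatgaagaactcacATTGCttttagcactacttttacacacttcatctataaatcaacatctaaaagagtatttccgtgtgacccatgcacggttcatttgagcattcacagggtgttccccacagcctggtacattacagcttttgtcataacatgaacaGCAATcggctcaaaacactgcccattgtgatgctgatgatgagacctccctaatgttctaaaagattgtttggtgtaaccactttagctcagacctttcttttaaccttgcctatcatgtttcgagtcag
TFAP2A, chr6:10419610-10419909, minus strand: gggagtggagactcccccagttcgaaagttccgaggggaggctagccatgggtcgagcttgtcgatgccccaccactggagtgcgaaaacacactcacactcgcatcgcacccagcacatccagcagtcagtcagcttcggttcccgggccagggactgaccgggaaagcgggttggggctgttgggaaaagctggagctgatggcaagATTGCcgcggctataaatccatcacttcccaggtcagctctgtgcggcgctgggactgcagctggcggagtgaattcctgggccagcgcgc
GATA3, chr10:8045083-8045382, plus strand: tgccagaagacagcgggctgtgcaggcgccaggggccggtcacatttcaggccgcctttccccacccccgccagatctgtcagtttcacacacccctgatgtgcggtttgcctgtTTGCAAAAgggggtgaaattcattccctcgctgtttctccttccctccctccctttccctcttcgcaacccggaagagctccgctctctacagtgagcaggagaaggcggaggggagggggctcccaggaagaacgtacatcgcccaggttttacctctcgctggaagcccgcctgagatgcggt

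None of the lineage factors passed the test with C/EBPbeta-2. The values are log2 intensities of a probe set, differences are C/EBPbeta-2 minus control, and a call means an adjusted p under 0.05 from limma. Limma called 0 of the 20 member probe sets, where 0.0659% of all probe sets were called, and 0 of the 8 member genes, where 0.273% of all genes were called. At an unadjusted p under 0.05 there were also 0 of 20 and 0 of 8, where 3.98% of all probe sets and 5.17% of all genes lay under it. The groups overlapped at all 20 probe sets, while they did not overlap at 7.62% of all probe sets. The smallest unadjusted p among the 20 was 0.0561, and every adjusted p was 1.00. Each array reads a whole culture, so fewer cells with a transcript and less of it per cell cannot be told apart. In sign, 13 of the 20 differences were below 0 and 7 above. The median was -0.08 over the member probe sets, against 0.00 over all probe sets, and -0.25 over the member genes, against 0.01 over all genes.

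**Figure D1:**
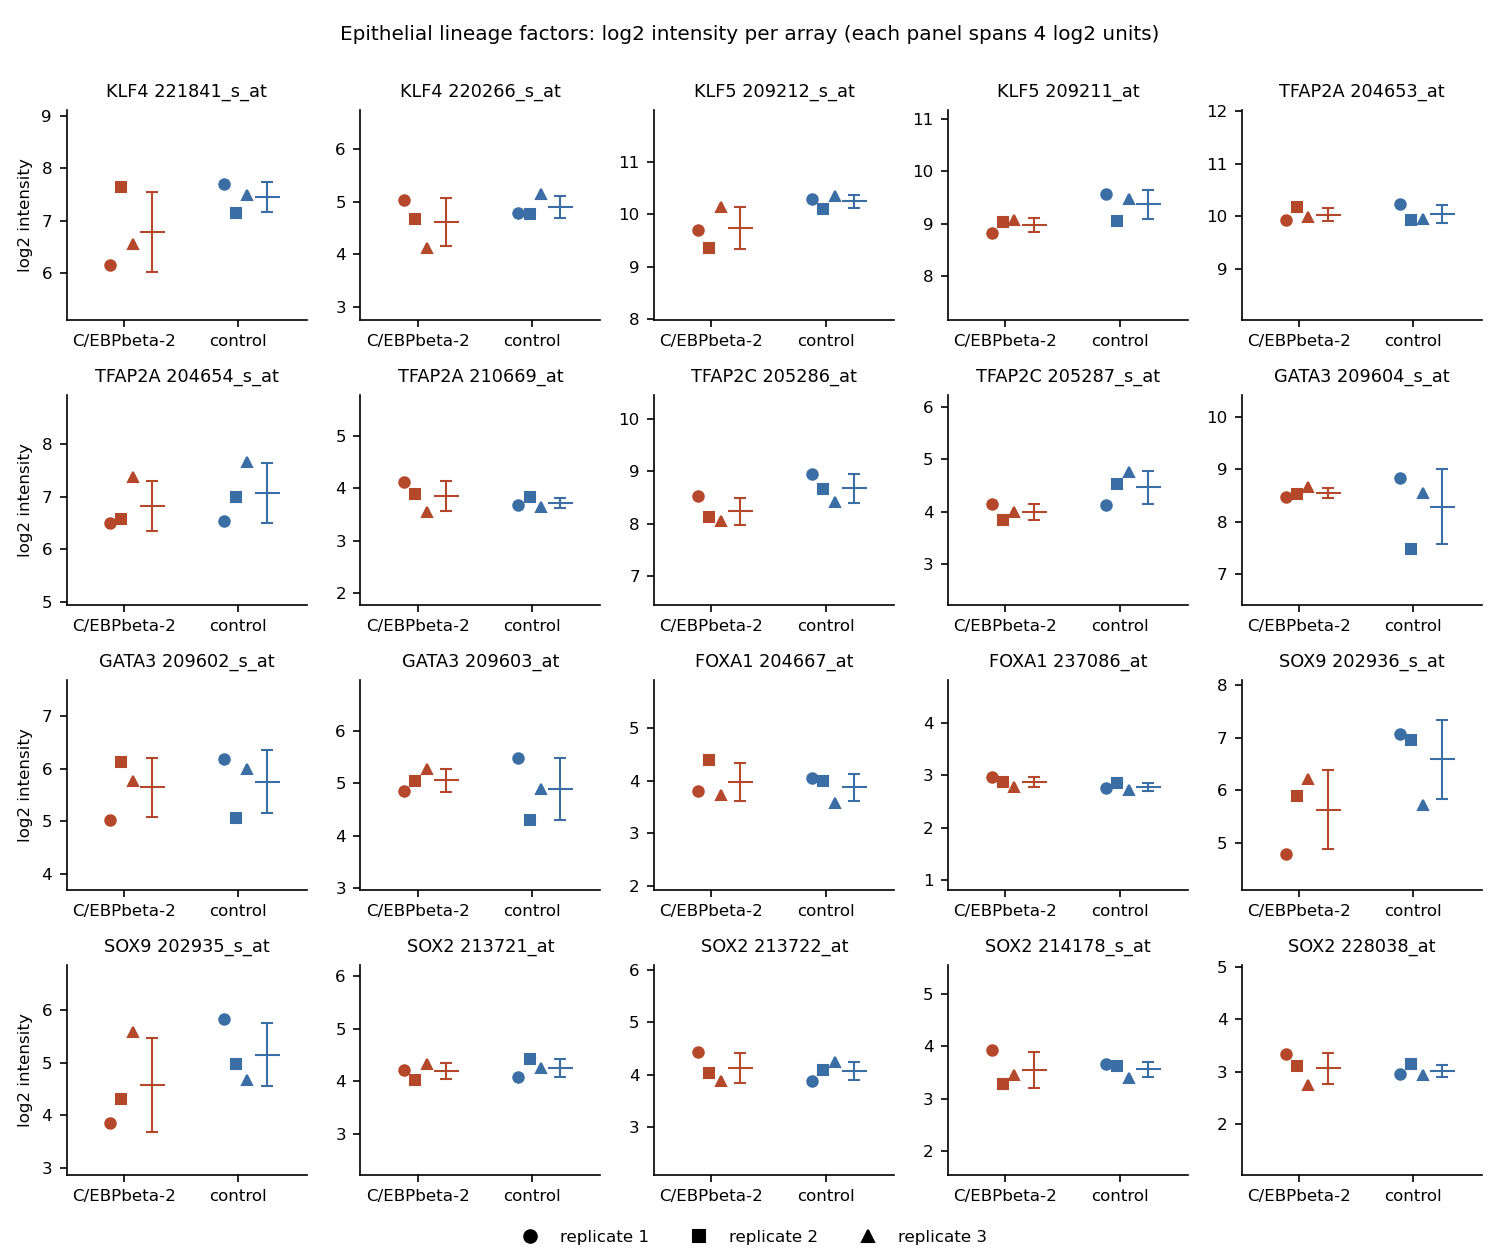
Log2 intensity of each of the 20 member probe sets on the 6 arrays. The arrays with C/EBPbeta-2 are on the left of each panel and the control arrays on the right, symbols mark the replicate number, and the bars give the mean and SD of the 3 arrays. All panels span the same number of log2 units, each centred on its own mean, so heights cannot be compared between panels. The groups overlap in each of the 20.

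The arrays differed in their control RNA. The poly-A spike-in RNA was low (log2 3.85 and 3.98) in C/EBPbeta-2 replicate 2 and in control replicate 1, and 7.21 to 8.25 elsewhere. These 2 are called low-spike arrays here, so each member also has a difference within 1 low-spike pair and within 2 against 2 high-spike arrays. The 18S ribosomal control probe sets read highest on C/EBPbeta-2 replicate 1 (12.19) and control replicate 2 (12.17). CEBPB itself (212501_at) read 10.29, 10.50 and 11.38 with C/EBPbeta-2, against 11.27, 11.38 and 11.37 in control, a difference of -0.62 (SE 0.30, 95% interval -1.32 to 0.08, unadjusted p = 0.0746, adjusted p = 1.00). Replicates 1 and 2 with C/EBPbeta-2 thus lay below every control array and replicate 3 lay among them, so this probe set showed no raised CEBPB level. Whether it reads the introduced transcript is not known here, and the groups rest on the labels. Markers of the labelled cell type read high: KRT5, a basal keratin, read 12.38 to 12.69 with C/EBPbeta-2 and 12.44 to 12.93 in control, and EGFR, the receptor of the growth factor in the medium, read 10.48 to 11.27 with C/EBPbeta-2 and 10.52 to 11.38 in control. CDH1 and KRT14, also among the markers of this line, were lower with C/EBPbeta-2, as given below. PTPRC, the defining surface protein of leukocytes, read 3.11 to 3.63 with C/EBPbeta-2 and 3.11 to 3.48 in control, below every array median (4.46 to 4.56). Of 9 measured blood cell markers, the means of 6 lay below every array median and those of 2 above, CD14 and the haemoglobin gene HBB. CD14 read 6.85 to 7.28 with C/EBPbeta-2 and 5.98 to 6.45 in control.

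KLF4, the factor of squamous differentiation, read 6.16, 7.64 and 6.56 at its brighter probe set 221841_s_at in C/EBPbeta-2 replicates 1 to 3, against 7.71, 7.14 and 7.48 in the control arrays. Replicates 1 and 3 with C/EBPbeta-2 lay below all control arrays, and replicate 2 lay among them. The difference was -0.66 (SE 0.39, 95% interval -1.59 to 0.28). Its size moved with the array left out: it was -1.08 without C/EBPbeta-2 replicate 2 and -0.34 without C/EBPbeta-2 replicate 1. It was -0.06 within the low-spike pair and -0.95 within the high-spike arrays, where the 2 arrays with C/EBPbeta-2 lay below the 2 control arrays. The dimmer probe set 220266_s_at read 5.03, 4.68 and 4.12 with C/EBPbeta-2 and 4.78, 4.76 and 5.14 in control. Its difference was -0.29 (SE 0.26), and it ran from -0.50 without C/EBPbeta-2 replicate 1 to -0.046 without C/EBPbeta-2 replicate 3, with -0.17 without control replicate 3.

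KLF5, the factor of dividing epithelial cells, had a strong signal at both probe sets. At 209212_s_at it read 9.71, 9.36 and 10.15 with C/EBPbeta-2, against 10.29, 10.11 and 10.34 in control. Replicates 1 and 2 with C/EBPbeta-2 lay below every control array, and replicate 3 passed only control replicate 2. The difference was -0.51 (SE 0.23, 95% interval -1.05 to 0.04, unadjusted p = 0.0633), and it was -0.32 without C/EBPbeta-2 replicate 2. At 209211_at the values were 8.83, 9.03 and 9.08 with C/EBPbeta-2 and 9.57, 9.06 and 9.48 in control, again with one array of each group crossing. That difference was -0.39 (SE 0.19, 95% interval -0.85 to 0.06). The KLF5 values were below 0 within both spike levels, at -0.93 and -0.55 within the low-spike pair and -0.30 and -0.31 within the high-spike arrays.

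The AP-2 genes gave unlike values. TFAP2A, read at 204653_at, was among the steadiest members, with 9.93, 10.17 and 9.98 with C/EBPbeta-2 and 10.23, 9.93 and 9.95 in control. The groups lay on top of each other, with a difference of -0.01 (SE 0.16) and a 95% interval of -0.40 to 0.38, well inside a 2-fold change in either direction. Its 2 highest arrays were the low-spike arrays of each group, and across the 6 arrays the probe set followed the ACTB 3' minus 5' value, a measure of RNA or cDNA shortening, with r = 0.967 as a description; the part of this measure in the values was not tested. Probe set 204654_s_at of TFAP2A read 6.50, 6.58 and 7.37 with C/EBPbeta-2 and 6.54, 6.99 and 7.66 in control (difference -0.25, SE 0.36), and the dim probe set 210669_at differed by 0.14 (SE 0.19). The 3 probe sets did not share a sign, and none of the 3 differences exceeded the larger SD of its groups.

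TFAP2C, which in breast cells acts on oestrogen receptor and other luminal genes, read 8.54, 8.14 and 8.05 at 205286_at with C/EBPbeta-2, against 8.96, 8.66 and 8.41 in control. The groups crossed at a single point, C/EBPbeta-2 replicate 1 over control replicate 3. The difference was -0.43 (SE 0.21, 95% interval -0.95 to 0.08). Its second probe set 205287_s_at, with a mean below every array median, read 4.14, 3.83 and 3.99 with C/EBPbeta-2 and 4.13, 4.52 and 4.75 in control. There too the groups crossed at one point, and the difference was -0.47 (SE 0.20, 95% interval -0.96 to 0.02). This was the smallest unadjusted p of the members, 0.0561. Within the low-spike pair and the high-spike arrays the differences were -0.82 and -0.24 at 205286_at and -0.29 and -0.56 at 205287_s_at.

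GATA3, the zinc-finger factor of luminal cells, read 8.47, 8.54 and 8.65 at 209604_s_at with C/EBPbeta-2, against 8.84, 7.49 and 8.54 in control. The arrays with C/EBPbeta-2 stood close together (SD 0.10), and the control arrays were spread by one low value in replicate 2 (SD 0.71). The difference was 0.26 (SE 0.35, 95% interval -0.57 to 1.10), and it was -0.14 without control replicate 2. Probe set 209602_s_at read 5.03, 6.14 and 5.76 with C/EBPbeta-2 and 6.19, 5.07 and 6.0 in control, so its lowest array in each group was the one with the highest 18S reading, whose part was not tested. It differed by -0.11 (SE 0.39). Probe set 209603_at differed by 0.16 (SE 0.31), with control replicate 2 again the lowest array (4.29).

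FOXA1, the factor that opens chromatin for the oestrogen receptor in luminal cells, was dim at both probe sets. At 204667_at it read 3.80, 4.40 and 3.73 with C/EBPbeta-2 and 4.05, 4.0 and 3.58 in control, all below every array median. The difference was 0.10 (SE 0.24, 95% interval -0.48 to 0.67). At 237086_at the values ran from 2.77 to 2.96 with C/EBPbeta-2 and from 2.72 to 2.85 in control. With no detection calls used here, such readings say only that no difference was detectable at this signal.

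SOX9 had the largest size of difference among the members and also a wide spread. At 202936_s_at it read 4.77, 5.88 and 6.21 with C/EBPbeta-2, against 7.07, 6.95 and 5.72 in control. Control replicates 1 and 2 lay above every array with C/EBPbeta-2, and control replicate 3 lay below C/EBPbeta-2 replicates 2 and 3. The difference was -0.96 (SE 0.50), a 1.94-fold lower mean with a 95% interval of -2.15 to 0.23. It was -1.19 within the low-spike pair and -0.85 within the high-spike arrays, and it ran from -1.39 without control replicate 3 to -0.54 without C/EBPbeta-2 replicate 1. The dimmer probe set 202935_s_at read 3.85, 4.32 and 5.58 with C/EBPbeta-2 and 5.84, 4.98 and 4.67 in control (difference -0.58, SE 0.51). That difference was -0.21 without C/EBPbeta-2 replicate 1, -0.24 without control replicate 1 and -1.08 without C/EBPbeta-2 replicate 3, and it was -1.52 within the low-spike pair and -0.11 within the high-spike arrays. The probe set followed the brighter one across the 6 arrays (r = 0.828), and each group had an SD of 0.61 or more at both.

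SOX2, the pluripotency and foregut factor, had 4 probe sets, each with a mean below every array median. The brightest, 213721_at, read 4.22, 4.04 and 4.33 with C/EBPbeta-2 and 4.08, 4.43 and 4.25 in control. The groups were intermixed, with a difference of -0.06 (SE 0.17, 95% interval -0.46 to 0.34). The other probe sets 213722_at, 214178_s_at and 228038_at differed by 0.05, -0.01 and 0.05, each with an interval inside a 2-fold change. Their signs were mixed, and no detection calls were used here to say whether the gene was read at all.

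**Figure D2:**
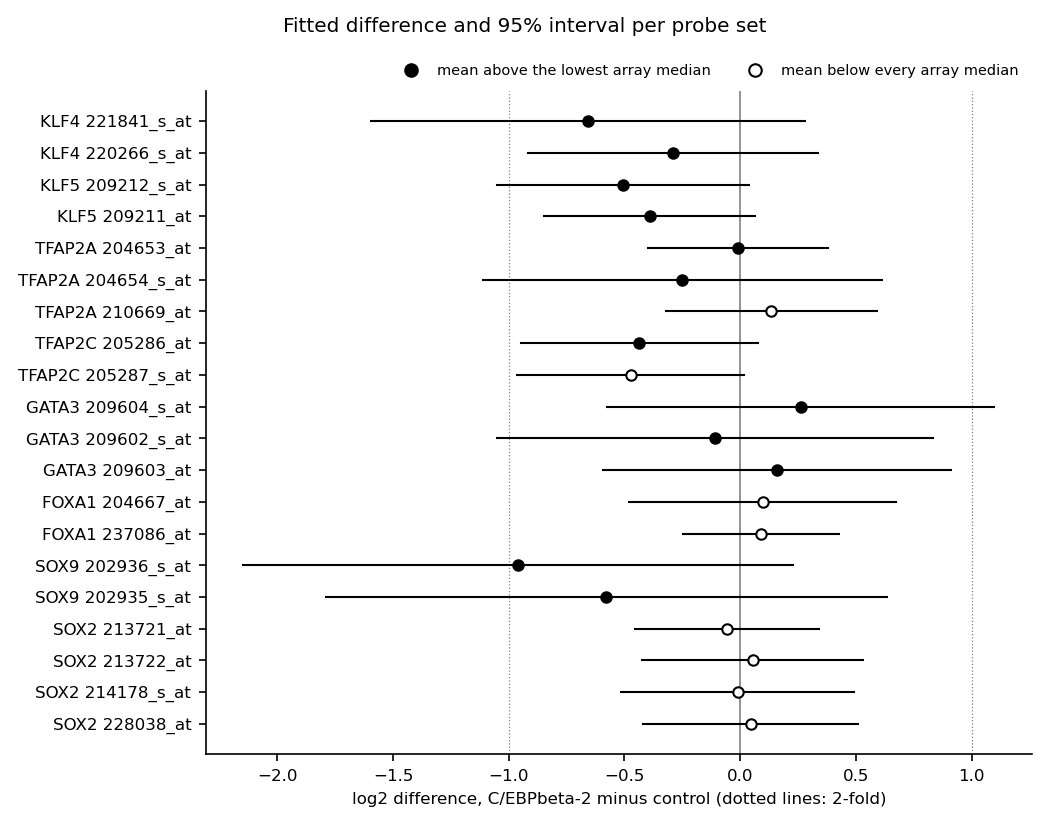
Fitted log2 difference, C/EBPbeta-2 minus control, for each member probe set, with its 95% interval from limma. Open points mark the 8 probe sets with a mean below every array median, dotted lines mark a 2-fold change, and all 20 intervals hold 0.

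The intervals set what these arrays could leave unseen. All 20 held 0, and 13 lay within a 2-fold change in both directions. These 13 included all 8 probe sets with a mean below every array median. At that signal a narrow interval does not show that a 2-fold change in the transcript was absent. The 7 intervals not within a 2-fold change were those of both probe sets of SOX9, 209604_s_at and 209602_s_at of GATA3, 221841_s_at of KLF4, 209212_s_at of KLF5 and 204654_s_at of TFAP2A. All but the 209604_s_at interval, which reached 1.10, passed the 2-fold line on the lower side. For 5 of the 20 probe sets the difference was larger than the SD of both groups: both of KLF5, both of TFAP2C and 202936_s_at of SOX9. The share of all probe sets with such a difference was not counted, so these 5 cannot be set against it. All 5 were below 0, and the adjusted p of each was 1.00. The 2 probe sets of a gene shared their sign for KLF4, KLF5, TFAP2C, FOXA1 and SOX9, whereas the probe sets of TFAP2A, GATA3 and SOX2 did not. A shared sign did not mean that both followed each other across the 6 arrays. Pearson's r between the 2 was 0.19 for KLF4, 0.315 for FOXA1 and 0.349 for TFAP2C, against 0.706 for KLF5 and 0.828 for SOX9.

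**Figure D3:**
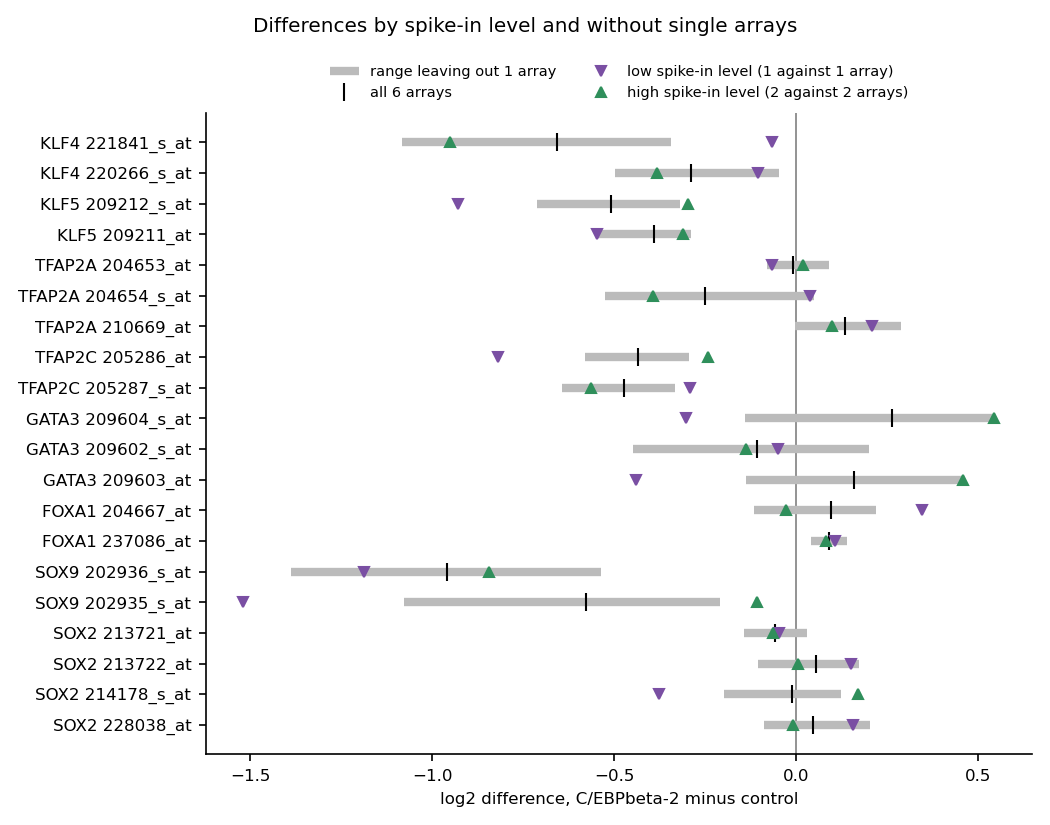
Log2 differences of the member probe sets over all 6 arrays (bars), within the low-spike pair (purple, 1 against 1 array) and within the high-spike arrays (green, 2 against 2 arrays), with the range when 1 array was left out (grey). KLF5, TFAP2C, KLF4 and SOX9 stay below 0 throughout, and GATA3 209604_s_at reads -0.30 and 0.55 at the low and high spike levels.

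The members did not share one pattern across the arrays. As descriptions over 6 arrays that share groups and labelling, Pearson's r between member genes, each read at its brightest probe set, ran from -0.835 for TFAP2A with SOX2 to 0.686 for TFAP2A with FOXA1, both involving a dim gene. At these probe sets TFAP2A, SOX2 and FOXA1 gave r = -0.928, 0.866 and -0.819 with the spike-in level of the arrays, whose part was not tested. KLF4 with KLF5 gave 0.132, TFAP2A with TFAP2C 0.228 and GATA3 with FOXA1 -0.0792. Among 8750 other genes with a mean of at least 6, the nearest to KLF4 were TCFL5 (r = 0.991) and PERP (0.988). Those nearest to KLF5 were STON2 (0.987) and LAPTM5 (0.987), and those nearest to SOX9 were EZR (0.973) and PXDN (0.973). For TFAP2A they were MAP1LC3B (0.992) and ZDHHC2 (0.989), and for GATA3 FCHO2 (0.991) and OSBPL9 (0.986). For TFAP2C they were FBLN1 (0.952) and the matrix proteoglycan DCN (0.946), and each is the highest or next of 8750 values.

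The families of the members gave the same count. Of 36 measured relatives among the KLF, AP-2, GATA, FOXA, SOX and p53 families, limma called 0, where 0.273% of all genes were called, and 0 lay at an unadjusted p under 0.05, where 5.17% of all genes did. Their median difference was -0.11, and the means of 11 of the 36 lay below every array median. KLF8 differed by -0.75 (SE 0.39), KLF10, a gene induced early by TGF-beta, by 0.59 (SE 0.43), SOX13 by -0.51 (SE 0.31) and SOX15 by -0.50 (SE 0.31), each with adjusted p = 1.00. The groups did not overlap for 1 of the 36, SOX7, at 9.89, 9.84 and 9.80 with C/EBPbeta-2, against 9.55, 8.94 and 9.76 in control, where 8.63% of all genes did not overlap. SOX7 was named after its values were seen, and it was not called.

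Among genes of the basal programme, 1 was called. Of 23 measured basal epithelial genes known as p63 targets, 1 fell and 0 rose, where 0.273% of all genes were called: KRT14, the keratin of basal cells, at 9.72, 11.04 and 10.24 with C/EBPbeta-2, against 13.12, 13.32 and 13.57 in control (difference -3.00, SE 0.34, adjusted p = 0.0300). Its partner KRT5 differed by -0.13 (SE 0.20). CLCA2, a chloride channel regulator of stratified epithelia, read 6.48, 7.55 and 6.81 with C/EBPbeta-2 and 10.47, 8.71 and 11.24 in control, and was not called (difference -3.20, SE 0.64, adjusted p = 0.197). KRT15 differed by -2.28 (adjusted p = 0.163) and LAMB3, a chain of laminin-332, by 1.17 (adjusted p = 0.833). At an unadjusted p under 0.05, 2 lay higher and 3 lower, where 5.17% of all genes lay under it in either direction. The groups did not overlap for 1 higher and 3 lower genes, where 8.63% of all genes did not overlap. The higher one was JAG1, a Notch ligand, at 9.80, 10.38 and 10.56 with C/EBPbeta-2, against 8.53, 9.21 and 9.52 in control (difference 1.16, SE 0.32, adjusted p = 0.464), and the lower ones were CLCA2, KRT14 and KRT15. The median of the list, whose members lay on both sides, was -0.01 against 0.01 over all genes.

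Partner factors of epidermal differentiation were not called either, 0 of 18 measured, where 0.273% of all genes were called. However, 5 lay at an unadjusted p under 0.05, all lower, where 5.17% of all genes lay under it in either direction, and the groups did not overlap for 6, all lower, where 8.63% of all genes did not overlap. The median of the 18 was -0.25 against 0.01 over all genes, and the means of 7 of the 18 lay below every array median. EHF read 3.54, 3.17 and 2.82 with C/EBPbeta-2, against 9.73, 5.98 and 8.70 in control, a difference of -4.96, and its adjusted p was 0.140. GRHL3, a barrier factor, differed by -2.13 (adjusted p = 0.341), ZNF750, a regulator of epidermal differentiation, by -1.15 (adjusted p = 1.00) and ELF3 by -0.999 (adjusted p = 0.392). ZNF750 was not among the 5 (unadjusted p = 0.0839 by limma), and its groups overlapped. With EHF, GRHL3 and ELF3, the 5 held NOTCH1, a Notch receptor, at -0.98 (adjusted p = 0.590) and OVOL2, a zinc-finger factor of epithelial cells, at -0.73 (adjusted p = 0.606). The 6 without overlap were these 5 and HOPX, at -0.49 with a mean below every array median.

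Luminal mammary genes gave 0 calls among 22 measured, where 0.273% of all genes were called. Below an unadjusted p of 0.05, 1 was higher and 1 lower, where 5.17% of all genes lay under it in either direction, and these 2 were also those whose groups did not overlap, against 8.63% of all genes. The median was 0.04, and the means of 9 of the 22 lay below every array median. MUC1, the mucin of the luminal surface, read 8.28, 9.26 and 8.60 with C/EBPbeta-2 and 10.60, 10.34 and 9.59 in control (difference -1.46, SE 0.35, adjusted p = 0.319). ERBB3, a receptor of the epidermal growth factor family, read 6.56, 6.28 and 6.63 with C/EBPbeta-2 and 6.28, 5.11 and 5.47 in control (difference 0.87, SE 0.31, adjusted p = 0.759). STC2 and MYB differed by 0.53 and 0.40, each with adjusted p = 1.00. Stem and progenitor factors gave 0 calls by limma among 13 measured, and 0 below an unadjusted p of 0.05, where 0.273% and 5.17% of all genes lay. The means of 5 of these 13 lay below every array median. The groups did not overlap for 2 of the 13, PROCR and CD44, both higher, where 8.63% of all genes did not overlap. MYC differed by -0.38 (SE 0.32), ALDH1A3 by -0.33, PROCR by 0.31 and SNAI2 by 0.27.

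**Figure D4:**
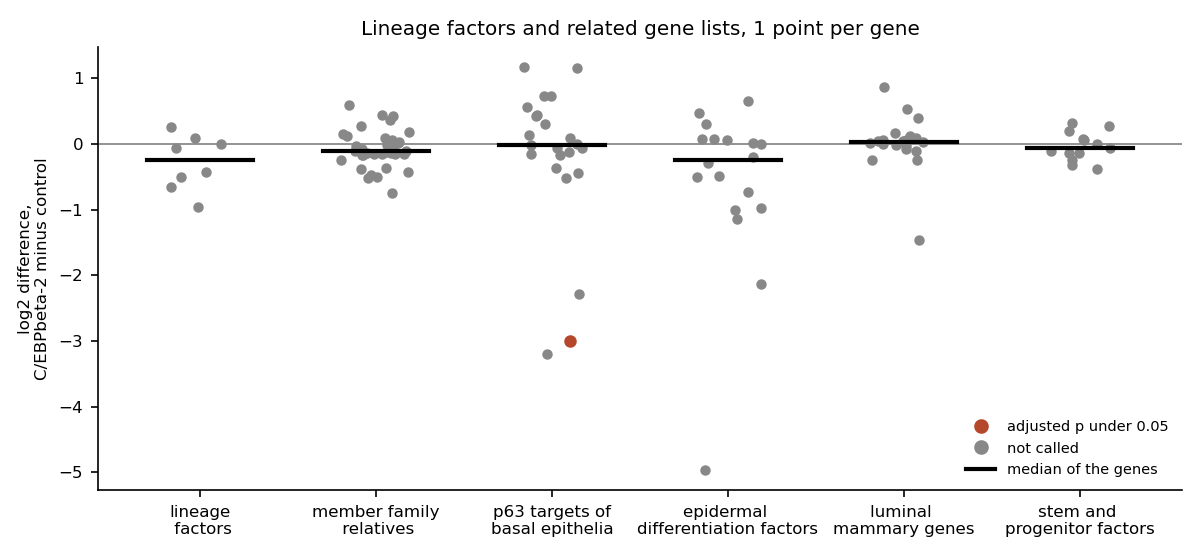
Log2 difference, C/EBPbeta-2 minus control, of each gene at its brightest probe set, for the 8 lineage factors and the 5 related lists. Horizontal bars are medians, and the called gene is KRT14 at -3.00. The lineage factors lie between -0.96 and 0.26.

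Markers of other cell types were read beside these values. For 9 measured blood cell markers, HBB included, the log2 of the summed intensities was 7.96 to 8.34 with C/EBPbeta-2 and 7.71 to 7.87 in control. CD14 was the brightest of them on every array, so this sum leans most on that gene. The groups did not overlap for 1 of these 9, CD14 (difference 0.92, adjusted p = 0.266), where 8.63% of all genes did not overlap. The same sum for 14 stromal and endothelial markers was 9.22 to 9.59 with C/EBPbeta-2 and 10.05 to 11.94 in control. The groups did not overlap for 2 of them, DCN and KDR, both lower, against the same 8.63% of all genes. DCN read 8.16, 7.38 and 7.11 with C/EBPbeta-2, against 11.76, 9.74 and 8.98 in control (difference -2.61, adjusted p = 0.417 by limma). It was the brightest of the 14 in every control array, so the summed intensities in control lean most on this gene. The sum of the others without DCN was not taken. LUM (2.62 to 2.92 with C/EBPbeta-2 and 2.61 to 2.86 in control) and PDGFRA (4.06 to 4.24 with C/EBPbeta-2 and 3.78 to 4.20 in control) lay below every array median, as did the means of 8 of the 14 in all. The other 6 were above every array median, among them ACTA2 at 6.96 to 7.38 with C/EBPbeta-2 and 6.99 to 7.89 in control, and COL1A1 at 6.58 to 6.91 with C/EBPbeta-2 and 6.77 to 6.90 in control. Of 9 measured markers that define the line, CDH1, the epithelial adhesion protein E-cadherin, and KRT14 fell, and 7 were not called, where 0.273% of all genes were called. CDH1 read 8.75, 8.57 and 8.07 with C/EBPbeta-2, against 10.58, 10.76 and 10.47 in control (difference -2.14, SE 0.22, adjusted p = 0.0245 by limma). The part of these markers in the values of the lineage factors was not tested.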

How the data were processed

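The authors deposited 1 intensity per probe set and array, on a linear scale, and the submitters' processing notes name RMA with no version or setting. Per the labels' protocols, total RNA was labelled with biotin from an oligo-dT primer. The deposited intensities ran from 4.17 to 17825, with array medians of 22.0 to 23.6 and 0 missing values, and the number of arrays limits the precision. They were turned to log2 here with no pseudocount and no further normalization. The 62 control probe sets were set aside, leaving 54613. Of these 41091 had 1 gene symbol, 1801 several and 11721 none, and 41037 of these symbols were found in RefSeq by gene ID. For each gene the probe set with the highest mean stood for it. Limma 3.58.1 in R 4.3.3 fitted the difference between C/EBPbeta-2 and control with all 6 arrays, two-sided and with no covariate. Benjamini-Hochberg adjustment ran over all probe sets or all genes. In simulated data the fit over genes called 17.9% of genes with a true log2 difference of 1. It called 95.5% at a true difference of 2 and 98.5% at 4, so most 2-fold changes there were missed. Python 3.11.15 and matplotlib 3.10.9 read the sequences and drew the plots.

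The members, lists and alternatives were chosen with earlier results of these data known. Named are every member probe set, CEBPB, up to 4 genes a list by size of difference, called genes, and the 2 nearest genes of each member with a mean of at least 6. KRT5, EGFR, PTPRC, LUM, PDGFRA, ACTA2 and COL1A1 were added as marker checks, and JAG1, NOTCH1, OVOL2, HOPX, HBB, CD44 and KDR were named after their values were seen. Listed genes that no probe set read alone were left aside. As alternatives, the fit left out each array, added the replicate number as a block or a spike-in term, changed the scaling, the filter on dim probe sets, the prior variance, the weights, the threshold and the reading of a gene.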

Additional observations from a re-analysis of the deposited data

How the results depend on the processing

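No member probe set or gene was called under any alternative run, and the lowest adjusted p of a member probe set over the 13 refits was 0.579, for KLF5 209211_at with array weights. Of the 20 differences, 9 kept their sign in every refit (8 lower, 1 higher) and 11 changed it in at least one, with sizes of 0.0088 to 0.26 over all 6 arrays. Leaving out 1 array gave ranges of -0.079 to 0.090 for TFAP2A 204653_at, -0.53 to 0.050 for 204654_s_at and -0.0017 to 0.29 for 210669_at. For GATA3 they were -0.14 to 0.54 (209604_s_at), -0.45 to 0.20 (209602_s_at) and -0.14 to 0.46 (209603_at), and for FOXA1 204667_at -0.11 to 0.22. For SOX2 they were -0.14 to 0.030 (213721_at), -0.10 to 0.17 (213722_at), -0.20 to 0.12 (214178_s_at) and -0.089 to 0.20 (228038_at). TFAP2A 204653_at was 0.015 with each array centred on its median and 0.0042 with a spike-in term. With array weights SOX2 213721_at was 0.018, 213722_at -0.052 and 228038_at -0.0017. SOX2 214178_s_at was 0.012 after quantile normalization and 0.012 after centring, and the mean of the SOX2 probe sets was 0.0080. The cause of these changes of sign was not tested.

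The counts over the whole array moved more. In all, 36 probe sets and 54 genes were called, and leaving out 1 array gave 5 to 37 probe sets and 8 to 75 genes. With the replicate number as a block there were 0 of each. The numbers do not pair the samples: deviations of same-numbered arrays correlated at -0.453, -0.553 and 0.42. C/EBPbeta-2 replicates 1 and 2 correlated best with control replicates 2 (0.637) and 1 (0.659). No crossed pairs were fitted, so the SEs and intervals given here count any deviation shared by such arrays as spread. Leaving out dim probe sets gave 78 probe sets, a trended and robust prior 67, and array weights 122 probe sets and 214 genes. An adjusted p under 0.1 gave 92 and 94, and an unadjusted p under 0.05 gave 2175 and 1023. The probe sets of FOXA1 and SOX2, 210669_at of TFAP2A and 205287_s_at of TFAP2C had means below every array median, and no detection calls were used here.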
